A study of Mus musculus with 10 samples.

Results

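The GLIS3 binding sites of mouse chromosomes 12 and 18 were described in thyroid glands, as 1510 of the 18513 sites (8.16%) in a list called from 1 ChIP-Seq experiment. Chromosome 12 held 890 sites and chromosome 18 held 620. The ChIP library came from glands of Glis3-EGFP mice, in which the GLIS3 protein is fused to the green fluorescent protein EGFP, and chromatin was isolated on agarose linked to a GFP-binding peptide. The control library was made in the same way from WT mice, which carry no GFP, so its tags give the background of the procedure. Both groups were C57BL/6 and received LID, a low-iodine diet that raises thyroid stimulating hormone, over 2 weeks, and the labels give no age for them. There was 1 ChIP library per group, so the spread between animals is unknown and no test between groups was possible. The sources used here do not say whether glands of several mice were pooled. The whole gland was used, which holds follicular cells beside other cell types, and no expression values were used here to check its makeup. The series also has 1 input library of each genotype and 3 RNA libraries each of Glis3KO and WT glands, which were not used here.

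GLIS3 is a Krüppel-like zinc finger transcription factor that activates genes of thyroid hormone synthesis in follicular cells and is also needed in the pancreatic beta cell. A ChIP-Seq site marks a short stretch where sequenced DNA fragments, counted as tags, gather on both strands around a point of contact between protein and DNA. Such sites can lie in promoters or in enhancers far from any gene, and regions rich in active genes usually hold more of them than regions that are closed or poor in genes. Chromosome 12 carries several genes known for their role in the thyroid. In the RefSeq annotation of GRCm38 these include, in this order, Slc26a4 for the anion transporter pendrin, Nkx2-1 for the thyroid transcription factor NKX2.1, Dio2 for a deiodinase and Tshr for the receptor of thyroid stimulating hormone. The sites are given in mm9, another build, so no site was placed at any of these genes and no sequence of a site is shown. All positions below are those of the deposited list in mm9.

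Both chromosomes were chosen by the number of sites per protein-coding gene, a value that is therefore a description and not a result. Chromosome 12 held 138 sites per 100 protein-coding genes and chromosome 18 held 121. Next in order came chromosome 15 with 105, and the lowest was chromosome 7 with 53.1. Chromosomes 12 and 18 had the fewest protein-coding genes of the 19 autosomes in GENCODE M21, with 643 and 513. Measured against length up to the last site, chromosome 12 held 7.38 sites per Mb and chromosome 18 held 6.93, around the median of 7.36 of the 17 other autosomes. By length they thus stood at places 9 and 12 of 19, and with all annotated genes as the base at places 11 and 5.

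A typical site on these chromosomes was of moderate size. On chromosome 12 the median was 13 tags and the quartiles were 10 and 20, and on chromosome 18 the median was 12 with the same quartiles. The median over all 18513 sites was 13 tags. The lowest count that the caller allowed was 9 tags, and 13.8% of the sites on chromosome 12 and 17.4% on chromosome 18 held that number. On the other autosomes this share ranged from 13.7% to 19.2%. A count of 9 tags has a 95% Poisson interval of 4.12 to 17.1, which covers counting error only, so sites near this minimum differ little from one another.

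The fold of a site compares its tags with the tags of the WT GFP ChIP after scaling to library size, and a site with no control tag is treated as having 1. The median fold was 13.74 on chromosome 12 and 13.1 on chromosome 18. A fold of at least 20 was reached by 252 sites (28.3%) on chromosome 12 and by 154 sites (24.8%) on chromosome 18, beside 23.8% of all sites. On the 17 other autosomes this share lay between 19.7% and 26.6%, so that chromosome 12 stood above their range and chromosome 18 within it. The caller gave a p-value of at most 0.001 to 778 sites (87.4%) on chromosome 12 and to 544 sites (87.7%) on chromosome 18, beside 86.0% of all sites. This p-value falls as the fold rises, and a site of 9 tags with 0 or 1 control tag passes 0.001.

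The share of strong sites, a measure that did not enter the choice, was the highest of all autosomes on these chromosomes. At least 50 tags were found at 44 sites of chromosome 12 (4.94%, exact 95% binomial interval 3.61 to 6.58) and at 24 sites of chromosome 18 (3.87%, interval 2.50 to 5.71), beside 3.08% of all sites. The 17 other autosomes ranged from 1.74% on chromosome 6 to 3.72% on chromosome 1. The interval of chromosome 12 lies above the value of all sites, while that of chromosome 18 includes it. These intervals take sites as independent although neighbours are not, and the difference between chromosomes was not tested.

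**Figure D1:**
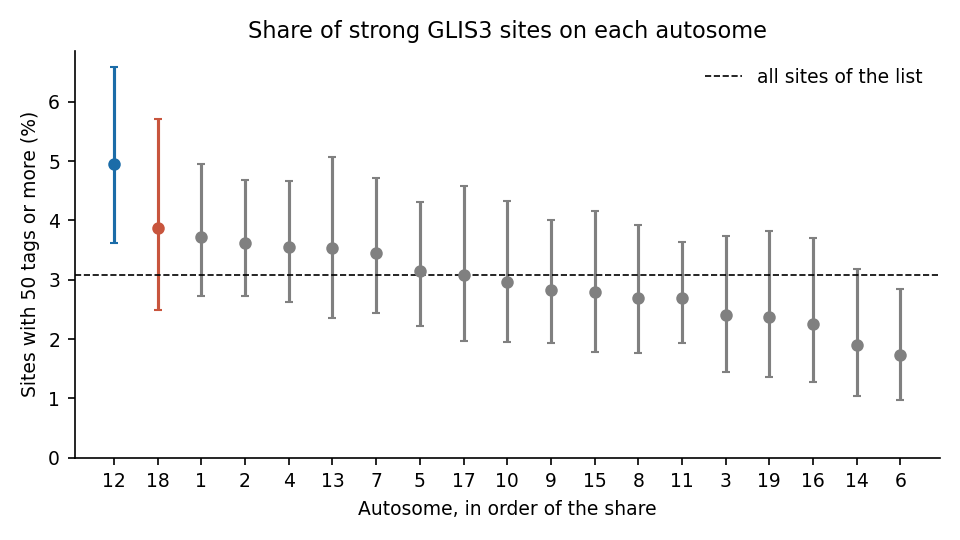
Share of GLIS3 sites with 50 tags or more (%, vertical axis) on each of the 19 autosomes in order of the share, with exact 95% binomial intervals (lines). Chromosomes 12 (4.94%) and 18 (3.87%) stand first, and the dashed line marks all sites (3.08%).

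The place of chromosome 12 held over a range of tag counts, and that of chromosome 18 did not. Chromosome 12 had the highest share of the 19 autosomes at minimum counts of 20, 30, 40, 50 and 60 tags, with 26.7% of its sites at 20 tags or more and 2.58% at 60 or more. At 75 tags or more it held 10 sites and stood at place 5. Chromosome 18 stood at place 2 at 20 tags, 4 at 30, 3 at 40, 7 at 60 and 1 at 75, where it held 11 sites. Per Mb, chromosome 12 had the most strong sites of all autosomes (0.365), and chromosome 18 stood at place 5 (0.268).

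On chromosome 12 the 10 strongest sites held 84 to 113 tags. The first, from 86112131 to 86112191, had 113 tags with a 95% Poisson interval of 93.1 to 136 and a fold of 64.69 over 2 control tags. The second, from 87160631 to 87160671, had 109 tags and the highest fold of the chromosome, 124.8. The intervals of all 10 sites overlapped, and differences between their counts were not tested. The third site lay from 109036931 to 109036971 with 102 tags, and the fourth from 17739971 to 17740011 with 99 tags. A pair of strong sites shared a run of 8 sites, from 113044791 to 113044831 with 97 tags and from 113054871 to 113054911 with 92 tags. The widest was a site of 240 bp from 88213211 to 88213451, with 98 tags. The remaining 3 lay from 8543511 to 8543551 with 87 tags, from 110660831 to 110660871 with 85 tags and from 9061911 to 9061971 with 84 tags. In order of strength the next site of the chromosome had 73 tags.

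Of these 10 sites on chromosome 12, 6 had another site within 500 bp, beside 19.3% of all sites of the chromosome. Runs of at least 5 sites held 6 of the 10, beside 15.2% of all its sites, and windows of 1 Mb with at least 15 sites held 9, beside 63.3%. Of all 44 sites with at least 50 tags, 10 (22.7%) were single, with no other site within 10 kb, beside 42.1% of all sites. The exception among the windows was the site at 9061911, whose nearest neighbour was 24800 bp away and whose window held 5 sites. The nearest neighbours of the 10 held 9 to 21 tags, except 1 of 46 tags next to the site at 113054871. The WT GFP ChIP had 0 or 1 tag at 7 of the 10 and 2 tags at the other 3.

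On chromosome 18 the strongest site lay from 10324831 to 10324871 and held 155 tags. Its 95% Poisson interval was 132 to 181 with a fold of 177.46, and the caller listed its p-value as 0. The second held 118 tags, with an interval of 97.7 to 141 that overlaps the first, and lay from 35836171 to 35836211, with 3 tags in the WT GFP ChIP and a fold of 45.03. The third had 102 tags, from 79385951 to 79385991, and the nearest other site lay 80260 bp away. The other 7 held 76 to 85 tags, with intervals that overlap. Among them, the sites from 10342971 to 10343031 and from 10474371 to 10474431, with 78 tags each, lay in the same window of 1 Mb as the strongest site. The site from 61944951 to 61945011, with 77 tags, had 4 control tags and the lowest fold of the 10, 22.04. Of the 10 sites, 6 had a neighbour within 500 bp, beside 22.9% of all sites of the chromosome, and 2 were single, beside 46.9%. Windows with at least 15 sites held 5 of them, close to the 44.7% of all its sites. The 10 sites held 8.48% of all tags at the sites of this chromosome, and the 10 on chromosome 12 held 5.90%.

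**Figure D2:**
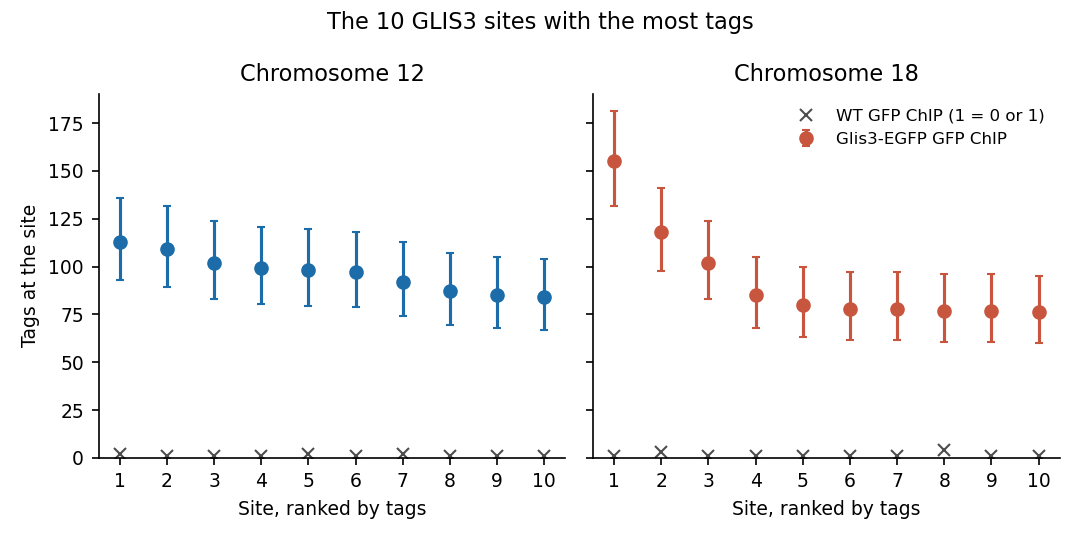
Tags (vertical axis) at the 10 sites with the most tags on chromosome 12 (left) and chromosome 18 (right), with 95% Poisson intervals for counting error, and tags of the WT GFP ChIP (crosses, where 1 stands for 0 or 1). All Glis3-EGFP counts, from 76 to 155, lie above the control counts of at most 4.

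Sites gathered in a minority of the windows of 1 Mb into which the chromosomes were divided. Chromosome 12 spanned 121 windows up to its last site, of which 34 (28.1%) held no site and 25 (20.7%) held at least 15. Over all autosomes 25.0% of windows were empty and 18.4% held at least 15 sites. Chromosome 18 spanned 90 windows, with 18 (20%) empty and 13 (14.4%) holding at least 15. Windows were counted from base 1, and on every autosome the first site began beyond 3 Mb. The empty windows thus include those before 3 Mb, and the site list does not show whether reads can map there. The median window held 3 sites on chromosome 12 and 4 on chromosome 18. The densest 10% of windows held 39.6% of the sites of chromosome 12, at place 3 of the 19 autosomes, and 34.0% on chromosome 18, at place 15. The lowest and highest of the other autosomes were 29.6% and 40.7%, so both chromosomes fell within their range. Set beside the autosomes nearest to them in length, chromosome 12 (20.7% of windows with at least 15 sites) lay between chromosome 13 (15.7%) and chromosome 11 (36.1%), and chromosome 18 (14.4%) lay below chromosome 17 (18.8%) and chromosome 16 (20.2%).

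The densest window of chromosome 12, from 106 to 107 Mb, held 43 sites. They had 9 to 73 tags with a median of 15, and 16 of them had a fold of at least 20. Although this window was the fullest, its sites were spread over 11 runs of at least 2 sites, none longer than 6, and 3 sites were single. The window from 113 to 114 Mb held 31 sites, with 5 sites of at least 50 tags and a highest count of 97. From 86 to 87 Mb there were 29 sites, 14 of them single, and this window held the strongest site of the chromosome. The windows from 81 to 82 Mb and from 80 to 81 Mb held 29 and 28 sites. They adjoin, and the longest run of the chromosome crosses their border. No site from 81 to 82 Mb reached 50 tags.

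On chromosome 18 the fullest windows were less full. Its densest window held the fewest sites of the densest windows of the 19 autosomes, beside 31 to 53 on the 17 others. From 60 to 61 Mb there were 27 sites, which all lay within 301 kb, and 26 more followed from 61 to 62 Mb. The window from 39 to 40 Mb also held 27 sites, but these were spread over 946 kb and were weak, with a median of 12 tags and a highest count of 31. The window from 65 to 66 Mb held 24 sites. From 10 to 11 Mb there were 22 sites, 4 of them with at least 50 tags, and their tags summed to 654, more than in any other window of the chromosome. With windows shifted by 0.5 Mb the fullest held 37 sites on chromosome 18 and 46 on chromosome 12.

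**Figure D3:**
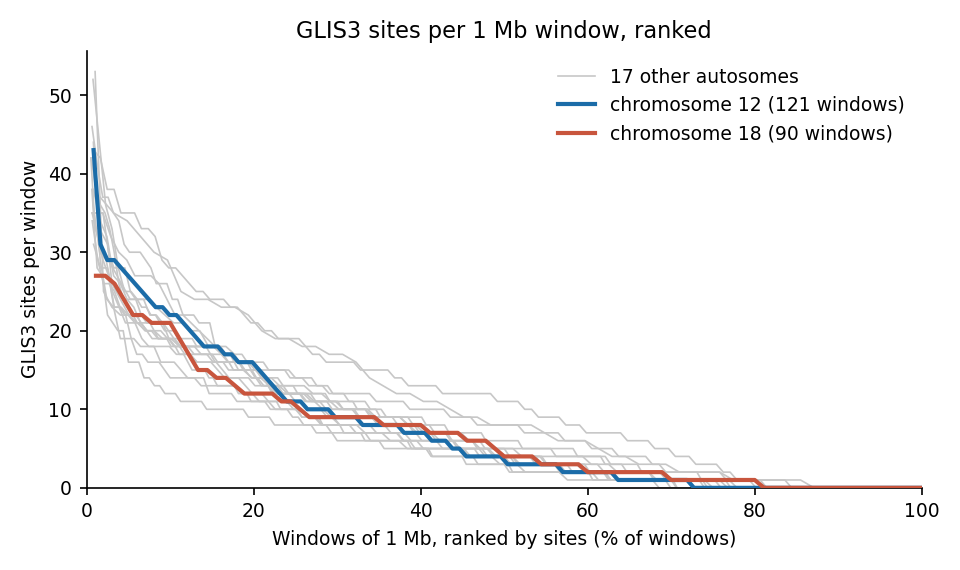
GLIS3 sites per window of 1 Mb (vertical axis), with the windows of each chromosome ranked from most to fewest sites (horizontal axis, % of windows). The 17 other autosomes (grey) start at 31 to 53 sites. Chromosome 12 (blue) starts within that range at 43, and chromosome 18 (red) below it at 27.

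In stretches of 10 Mb, the sites of chromosome 12 lay mostly in its distal part. From 70 to 90 Mb there were 122 and 181 sites per 10 Mb with no empty window, and from 100 to 120 Mb there were 139 and 112. The stretch from 80 to 90 Mb alone held 20.3% of the sites and 11 of the 44 strong ones. By contrast, 18 sites lay from 40 to 50 Mb, 5 from 60 to 70 Mb and 22 from 90 to 100 Mb, with 5, 8 and 6 empty windows of 10. Near the proximal end, the first 10 Mb held 86 sites, 9 of them strong, and the first site of the chromosome began at 3110711. Chromosome 18 was more even. Its fullest stretch, from 60 to 70 Mb, held 132 sites (21.3%), its emptiest whole stretch, from 20 to 30 Mb, held 25, and the others held between 34 and 95. Strong sites lay in each stretch but the one from 20 to 30 Mb, with 6 each from 10 to 20 Mb and from 60 to 70 Mb.

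Neighbouring windows tended to be alike. The Spearman correlation between the number of sites in a window and in the next was 0.48 over 120 pairs on chromosome 12 and 0.34 over 89 pairs on chromosome 18, given as a description since all windows share 1 library.

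Long gaps without a site divided both chromosomes. Chromosome 12 had 21 gaps of at least 1 Mb, which covered 52.0 Mb or 44.3% of the distance from its first to its last site. Chromosome 18 had 17, which covered 34.6 Mb or 40.2%. The other autosomes ranged from 23.9% to 48.8%, with a median of 42.0%, so neither chromosome stood outside their range. The median gap between neighbours was 22.78 kb on chromosome 12 and 27.98 kb on chromosome 18. The site list does not show which parts of a gap short reads can map to.

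The longest gaps of chromosome 12 were 5.96 Mb, from 93110011 to 99074631, and 5.90 Mb, from 60167791 to 66066811. The latter was followed, after 3 sites from 66066811 to 66273731, by another of 3.99 Mb that ended at 70260571. These 3 sites held 9 to 20 tags. The next 2 were of 3.97 Mb, from 42143931 to 46114531, and of 3.90 Mb, from 21430311 to 25329131. Between the gaps lay 22 groups of sites. The largest group began right after the gap that ended at 70260571 and held 306 sites over 20.6 Mb, up to 90900091, with the strongest site of the chromosome. Groups of 118 sites from 108193791 to 114398271 and of 117 sites from 99074631 to 107179211 followed at the distal end. At the other extreme, 4 sites were alone in a group, with 10 to 13 tags.

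On chromosome 18 the longest gap was 5.26 Mb, from 15651511 to 20907431, and it followed a group of 115 sites that began at 3449571 and held the strongest site. A gap of 4.51 Mb, from 85018551 to 89528491, came before the last site of the chromosome, which was alone and held 9 tags. The others of the 5 longest were 3.01 Mb from 25814351 to 28822991, 2.48 Mb from 40269371 to 42745351 and 2.36 Mb from 50213131 to 52569711. The largest of the 18 groups held 146 sites over 11.1 Mb, from 60641891 to 71762531. Sites of 25 tags or more made up a smaller share at the edges of these gaps than among all sites. They were 3 of 39 edge sites (7.69%) on chromosome 12, beside 17.3% of all its sites, and 2 of 33 (6.06%) on chromosome 18, beside 16.5%. Of the 39 edge sites on chromosome 12, 18 (46.2%) held 9 to 12 tags, beside 45.2% of all its sites, and the median was 13. Of the 33 on chromosome 18, 22 (66.7%) held 9 to 12 tags, beside 50.3% of all its sites, and the median was 11. These differences were not tested.

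**Figure D4:**
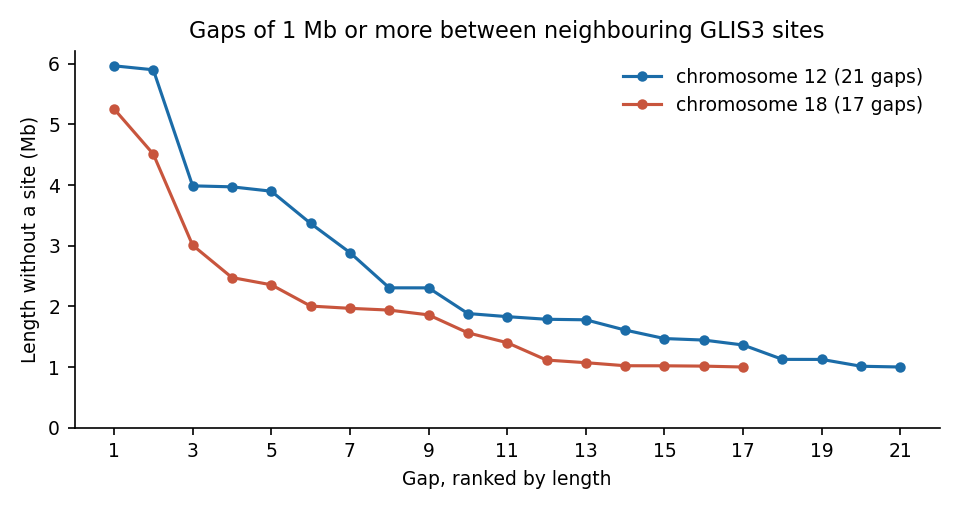
Length (Mb, vertical axis) of each gap of at least 1 Mb between neighbouring GLIS3 sites, ranked from the longest, on chromosome 12 (blue, 21 gaps) and chromosome 18 (red, 17 gaps). The longest are 5.96 and 5.26 Mb, and at each rank the gap of chromosome 12 is the longer.

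Within the groups, sites formed runs, defined here as neighbours separated by at most 10 kb. Chromosome 12 had 21 runs of at least 5 sites, with 135 sites (15.2%), and chromosome 18 had 10, with 66 sites (10.6%). On the other autosomes 4.05% to 19.2% of sites lay in such runs. Single sites, with no other within 10 kb, made up 42.1% of sites on chromosome 12 and 46.9% on chromosome 18, and pairs a further 25.2% and 25.5%.

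The longest run of chromosome 12 held 11 sites over 27.1 kb, from 80978971 to 81006051. Its sites had 9 to 70 tags with a median of 13. The highest lay 12.95 kb from the first site, between neighbours of 9 and 13 tags, and a site of 42 tags lay 0.27 kb from the first. In this run 8 of 11 sites passed a p-value of 0.001. A run of 8 sites from 113044791 to 113058351 was shorter, at 13.6 kb, and much stronger. Its tags from the first site to the last were 97, 10, 10, 51, 38, 46, 92 and 11. The 4 sites of 38 to 92 tags lay from 113053551 to 113054911, and all 8 passed a p-value of 0.001. The median fold of this run was 48.09, against 13.74 for the run of 11 sites.

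Of the other runs of 8 sites, the one from 112035971 to 112061011 held 12 to 60 tags, and its 4 first sites, with 12, 29, 23 and 60 tags, lay from 112035971 to 112037091. The run from 74894291 to 74916711 began with sites of 47 and 41 tags and had no later site above 18, and 972520 bp without a site followed it. From 103862131 to 103889751 the tags were 29, 53 and 13 at the first 3 sites, which lay from 103862131 to 103862651, and 11 to 14 at the other 5. In each of these 3 runs the highest count lay among the first 4 sites, and the last 4 held at most 20 tags. A further run of 8 sites, with the lowest summed tags of them, lay from 88157311 to 88177871 and held 9 to 50 tags.

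On chromosome 18 the longest runs held 9 sites each and differed in strength. The run from 35814831 to 35838811 held the second strongest site of the chromosome, at 21.33 kb from its start, and its tags were 28, 10, 30, 15, 20, 118, 32, 12 and 28. The median was 28 tags. The run from 60874151 to 60896451 had a median of 13 tags and none above 33. Every site of both runs passed a p-value of 0.001, which a site of 9 tags also passes when it has 0 or 1 control tag. Runs of 7 sites lay from 53409251 to 53429011, with 10 to 70 tags, and from 80825471 to 80841031, with 9 to 22 tags. A run of 6 sites from 50205751 to 50213131 held 80 tags at its second site and ended at the edge of a gap of 2.36 Mb. The strongest site of the chromosome lay in a run of 5 sites over 4.82 kb, from 10324411 to 10329231, with 261 tags in all.

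**Figure D5:**
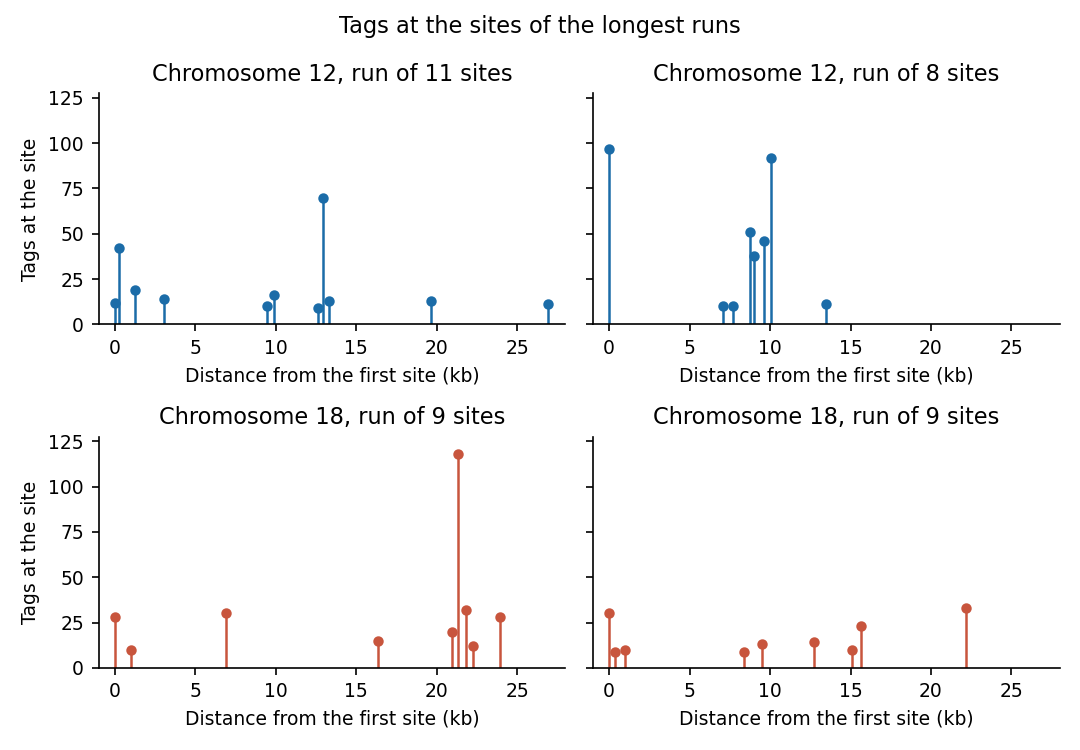
Tags (vertical axis) at each site of the longest runs of chromosome 12 (11 and 8 sites, blue) and chromosome 18 (9 and 9 sites, red), by distance from the first site of the run (kb). The highest sites reach 70, 97 and 118 tags in the first 3 panels, and no site exceeds 33 tags in the panel at lower right.

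Strong sites made up a larger share in long runs than among single sites. On chromosome 12, 10.4% of sites in runs of at least 5 had 50 tags or more, against 2.67% of single sites. The values were 12.1% and 2.06% on chromosome 18, and 6.58% and 1.58% over the 17 other autosomes together, in the same order. By window on chromosome 12, 33 of 563 sites (5.86%) had 50 tags or more in windows with at least 15 sites. In windows with 1 to 4 sites it was 1 of 75 (1.33%). On chromosome 18 these were 12 of 277 (4.33%) and 2 of 59 (3.39%), in the same order. These shares were not tested. A site close to a strong site counts towards its run, so run length and strength are not independent measures. The median count differed less between runs and single sites, with 13 tags in such runs and 13 at single sites on chromosome 12, and 14.5 and 11 on chromosome 18. Across occupied windows, the Spearman correlation of the number of sites with their median tags was 0.15 (87 windows) on chromosome 12 and 0.13 (72 windows) on chromosome 18. With the highest tags it was 0.72 and 0.69, but a window with more sites has more chances of a high count.

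Some strong sites had a weaker companion close by. Another site lay within 500 bp of 17 of the 44 sites with at least 50 tags on chromosome 12 (38.6%) and of 14 of the 24 on chromosome 18 (58.3%). Among sites with 9 to 12 tags these shares were 14.9% and 18.9%. Over the other autosomes the shares were 46.5% and 18.5%. None of the companions had 50 tags itself. Their median was 15 tags on chromosome 12 and 14.5 on chromosome 18, with a highest count of 46 and 32. Whether a companion is a separate point of contact or a part of the signal of the strong site was not tested.

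The background in WT glands was low at most of these sites, but the call itself required a fold of 2 over this library. Few control tags are thus partly a condition of being in the list. Fold, tags and library sizes gave a whole number of control tags, within 2%, at 863 sites of chromosome 12 and 602 of chromosome 18. It was 0 or 1 at 81.5% and 82.4% of them, and 3 or more at 37 sites (4.29%) and 31 sites (5.15%). The corresponding shares over the whole list were 81.6% and 5.22%. None of these sites had more than 5 control tags. With 5 control tags, 3 sites of chromosome 12 had 9 to 11 tags and folds of 2.06 to 2.52, and 1 site of chromosome 18, from 6491271 to 6491351, had 16 tags and a fold of 3.66. Of the sites with at least 50 tags, 32 of 44 on chromosome 12 and 17 of 24 on chromosome 18 had 0 or 1 control tag. The lowest fold among these strong sites was 19.08 and 22.04.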

How the data were processed

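Per the submitters' processing notes, Bowtie was used and the build was mm9. Sites were called by the authors with SISSRs 1.4. Per the file headers, the caller was set to a P-value of 0.05 and an E of 10, with scanning in 20 bp, fragments of 204 bp and 1 tag kept at each position. A site needed 9 tags and a fold of 2. The Methods of the paper describe another call, on mm10. The deposited tag count, fold ratio and p-value of each site are the authors' values. Of the Glis3-EGFP tags 4516562 entered the call, and the control file held 5171171.

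From the list, sites were counted by their middle in windows of 1 Mb, and gaps were measured from the end of a site to the start of the next. Control tags were computed from tags, fold and library sizes. Protein-coding genes were counted in GENCODE M21 (GRCm38), by chromosome only. The steps were tested on simulated lists with planted windows, gaps and runs. No test between groups was made, since each group had 1 library. On each chromosome the 10 sites with the most tags, the 5 fullest windows, the 5 longest gaps and the 5 longest runs are named, with ties in order of summed tags. The chromosomes and measures were chosen with earlier results of these data known. Scripts ran in Python 3.11.15 (pandas 2.3.3, NumPy 2.4.6, SciPy 1.17.1), with figures from Matplotlib 3.10.9.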

Additional observations from a re-analysis of the deposited data

How the results depend on the processing

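The bases of Mb and RefSeq genes, and strong sites per Mb, were added after the data were examined. Chromosomes 12 and 18 stayed at places 1 and 2 in sites per protein-coding gene at a p-value of at most 0.001, at 13 or more tags, with sites within 1 kb merged and with RefSeq genes, but stood at 11 and 5 by all genes and at 9 and 12 by Mb. By strong sites per Mb chromosome 18 stood at place 5. At 13 or more tags the fullest window of chromosome 12 held 26 sites and chromosome 18 had 30 empty windows. Windows of 2 Mb left 9 and 5 empty, with 53 sites in the fullest on chromosome 18. Gaps of at least 0.5 Mb numbered 48 and 37. Runs of at least 5 sites on chromosomes 12 and 18 fell to 8 and 5 after merging and to 10 and 6 with gaps of at most 5 kb, and rose to 33 and 19 with gaps of at most 20 kb, by construction. At a p-value of at most 0.001, 32.4% of sites on chromosome 12 had a fold of at least 20. The shares with 0 or 1 control tag were then 93.4% on chromosome 12 and 93.8% on chromosome 18. The caller's p-value falls as the fold rises, so all these shares rise under this limit by construction. Of 66 values recomputed, 45 kept their rank, stayed within 1.5 times of a count or stayed within the counting interval of a share. Windows of 2 Mb and other limits for gaps or runs count another quantity, so this number is not a rate of stability. With 1 library per group, depth limits sites near 9 tags, and no replicate could be left out. No paired analysis was possible because 1 ChIP library stood on each side and the numbered RNA replicates were not used here.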
